A study of Homo sapiens with 83 samples.

Results

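The genes described here are 5 members of the plasminogen activation system, PLAT, PLAU, PLAUR, SERPINE2 and SERPINB2, taken by symbol from the 60237 genes of the table. PLAT was chosen because its transcript was so much lower with active N-MYC in both cell lines, so its MYC-ON values are given as a description and were not tested. The other 4 genes were chosen because they belong to the same system. Plasminogen, made mainly by the liver, is cut to the protease plasmin by either of its activators, tissue-type (PLAT) or urokinase-type (PLAU) plasminogen activator. Urokinase works on the cell surface bound to its receptor PLAUR, and serpins such as SERPINB2 (PAI-2) and SERPINE2 (protease nexin-1) trap the activators in inactive complexes. Plasmin clears fibrin and digests extracellular matrix, and in the nervous system PLAT is known for a role in neurite outgrowth.

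RNA-seq of poly-A RNA covered 83 libraries of the human neuroblastoma cell lines SHEP and SKNAS, in the study of how activated N-MYC alters circadian transcription. Every library came from cells that overexpressed N-MYC-ER, N-MYC joined to a hormone-binding domain that keeps it out of the nucleus until 4-hydroxytamoxifen (4OHT) is given, and every culture received dexamethasone to entrain its clock. MYC-OFF cells had the ethanol vehicle and MYC-ON cells had 4OHT. Since no 4OHT-treated cells without N-MYC-ER were analysed here, an effect of 4OHT itself and of N-MYC cannot be told apart. Circadian time (CT) is the number of hours since dexamethasone, and RNA was taken every 4 h. SHEP had 2 series of 14 libraries per condition (28 MYC-OFF and 28 MYC-ON, CT24 to CT76), and SKNAS had 1 series per condition (14 MYC-OFF to CT76 and 13 MYC-ON to CT72).

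Levels are in TPM (transcript abundance per length, scaled so that each library adds up to the same total), so the sequencing depth of a library is not known from them. The median of log2(TPM + 1) over the tested genes was 3.93 to 4.17 in the SHEP libraries and 2.76 to 4.38 in those of SKNAS, where 3 MYC-OFF and 4 MYC-ON libraries were below 3.3. Of 8 mesenchymal neuroblastoma markers, 7 to 8 had a mean of at least 1 TPM in each group. Of 7 adrenergic markers, 2 did in the SHEP groups and 5 in the SKNAS groups. The summed adrenergic markers were 264 to 611 TPM in SKNAS MYC-OFF and 82.8 to 260.9 TPM in SKNAS MYC-ON. Of 5 leukocyte markers, 2 had a mean of at least 1 TPM in each group, with sums of 86.5 to 312.5 TPM in SKNAS MYC-OFF and 26.8 to 135.8 TPM in SKNAS MYC-ON. Of 6 fibroblast and endothelial markers, 2 to 3 did so in SKNAS (854 to 1630 TPM in MYC-OFF, 377 to 1143 TPM in MYC-ON) and 1 to 2 in SHEP, while the endothelial markers PECAM1, CDH5 and VWF had means under 1 TPM in all 4 groups. The part of these markers in the results below was not tested.

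By Gencode 44 on GRCh38, PLAU lies on chromosome 10 (73909177 to 73917496, plus strand), PLAUR on chromosome 19 (43646095 to 43670547, minus strand), SERPINE2 on chromosome 2 (223975045 to 224039318, minus strand) and SERPINB2 on chromosome 18 (63871692 to 63903888, plus strand). The lncRNA C10orf55 overlaps PLAU on the opposite strand with a mean of 0.404 TPM over all libraries. Promoter sequences from RefSeq (GRCh38.p14) were matched for 4 of the 5 members, all but PLAT. The 250 bases before a start site are shown for these 4 because they were the promoters of genes that moved with MYC-ON, and capitals mark 3 motifs searched on both strands: CACGTG, the E-box that MYC and clock factors can bind, TGANTCA, the AP-1 site, and the GC box GGGCGG. The windows are chr10:73910882-73911131 (plus strand) for PLAU, chr19:43670170-43670419 (minus) for PLAUR, chr2:224031479-224031728 (minus) for SERPINE2 and chr18:63887455-63887704 (plus) for SERPINB2.
PLAU: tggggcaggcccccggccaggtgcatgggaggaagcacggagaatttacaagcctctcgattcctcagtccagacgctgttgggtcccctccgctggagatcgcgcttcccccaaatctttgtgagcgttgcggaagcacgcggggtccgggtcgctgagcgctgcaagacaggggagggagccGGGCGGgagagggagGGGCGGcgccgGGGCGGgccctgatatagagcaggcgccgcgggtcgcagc
PLAUR: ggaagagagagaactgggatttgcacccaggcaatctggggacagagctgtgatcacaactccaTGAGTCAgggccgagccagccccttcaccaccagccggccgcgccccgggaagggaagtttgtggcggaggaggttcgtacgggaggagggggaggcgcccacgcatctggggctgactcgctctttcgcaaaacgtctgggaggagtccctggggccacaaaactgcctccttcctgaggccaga
SERPINE2: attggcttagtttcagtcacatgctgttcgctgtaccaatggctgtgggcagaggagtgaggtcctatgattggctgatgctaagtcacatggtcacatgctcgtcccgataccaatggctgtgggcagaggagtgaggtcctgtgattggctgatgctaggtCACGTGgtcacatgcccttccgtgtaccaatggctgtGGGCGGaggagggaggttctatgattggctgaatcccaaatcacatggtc
SERPINB2: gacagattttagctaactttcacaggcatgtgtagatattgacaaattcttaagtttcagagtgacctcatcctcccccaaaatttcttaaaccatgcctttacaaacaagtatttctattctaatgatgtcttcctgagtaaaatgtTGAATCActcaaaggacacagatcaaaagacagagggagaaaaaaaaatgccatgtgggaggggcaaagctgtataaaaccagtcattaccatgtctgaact
By the Gencode coordinates, every window shown lies inside its annotated gene, so the start sites meant here are internal ones. Among the windows shown, CACGTG was found once, in that of SERPINE2, 87 bases before the start. Of all 35116 promoter windows of this length 6.34% hold it. TGANTCA was found in PLAUR, 186 bases before the start, and in SERPINB2, 102 bases before the start, against 6.57% of all windows. GGGCGG was found at 3 places in PLAU and at 1 in SERPINE2, against 42.6% of all windows. A further window for PLAU, chr10:73910360-73910609, lies closer to the annotated start of the gene. It holds none of the motifs and is not shown. A further SERPINE2 window, chr2:224038641-224038890, lies closer to the annotated start of the gene and is not shown either. It holds no CACGTG and has GGGCGG at 2 places. These matches describe letters in the windows and no binding was measured.

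PLAT, the tissue-type activator, lies on chromosome 8 (42174718 to 42207709, minus strand, Gencode 44 on GRCh38) and had the largest fold difference between group means of the 5 in both lines. In SHEP its level ran from 30.1 to 116.1 TPM under MYC-OFF (median 82.6) and under MYC-ON from 4.44 to 11.2 TPM (median 6.56). In SKNAS it ran from 13.8 to 104.0 TPM in MYC-OFF (median 76.8) and from 2.34 to 12.7 TPM in MYC-ON (median 6.77). The groups did not overlap in either line, and PLAT was lower in MYC-ON in all 28 pairs of the same series and CT in SHEP and all 13 such pairs in SKNAS. Separation of this kind was not counted over all tested genes, so here and below it does not set a gene apart. The group means were 82.4 ± 20.1 and 7.004 ± 1.60 TPM (SD, n = 28 each) in SHEP, an 11.8-fold difference, and 65.2 ± 27.9 (SD, n = 14) and 6.76 ± 3.48 TPM (SD, n = 13) in SKNAS, a 9.66-fold difference. On the log2(TPM + 1) scale MYC-ON minus MYC-OFF was −3.35 ± 0.081 (SE) in SHEP and −2.99 ± 0.24 (SE) in SKNAS. By this value PLAT stood 3rd from the lowest of 14362 genes in SHEP and 4th of 13886 in SKNAS, which is how it came to be chosen. In bulk RNA, fewer cells with a transcript and less of it per cell cannot be told apart.

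**Figure D1:**
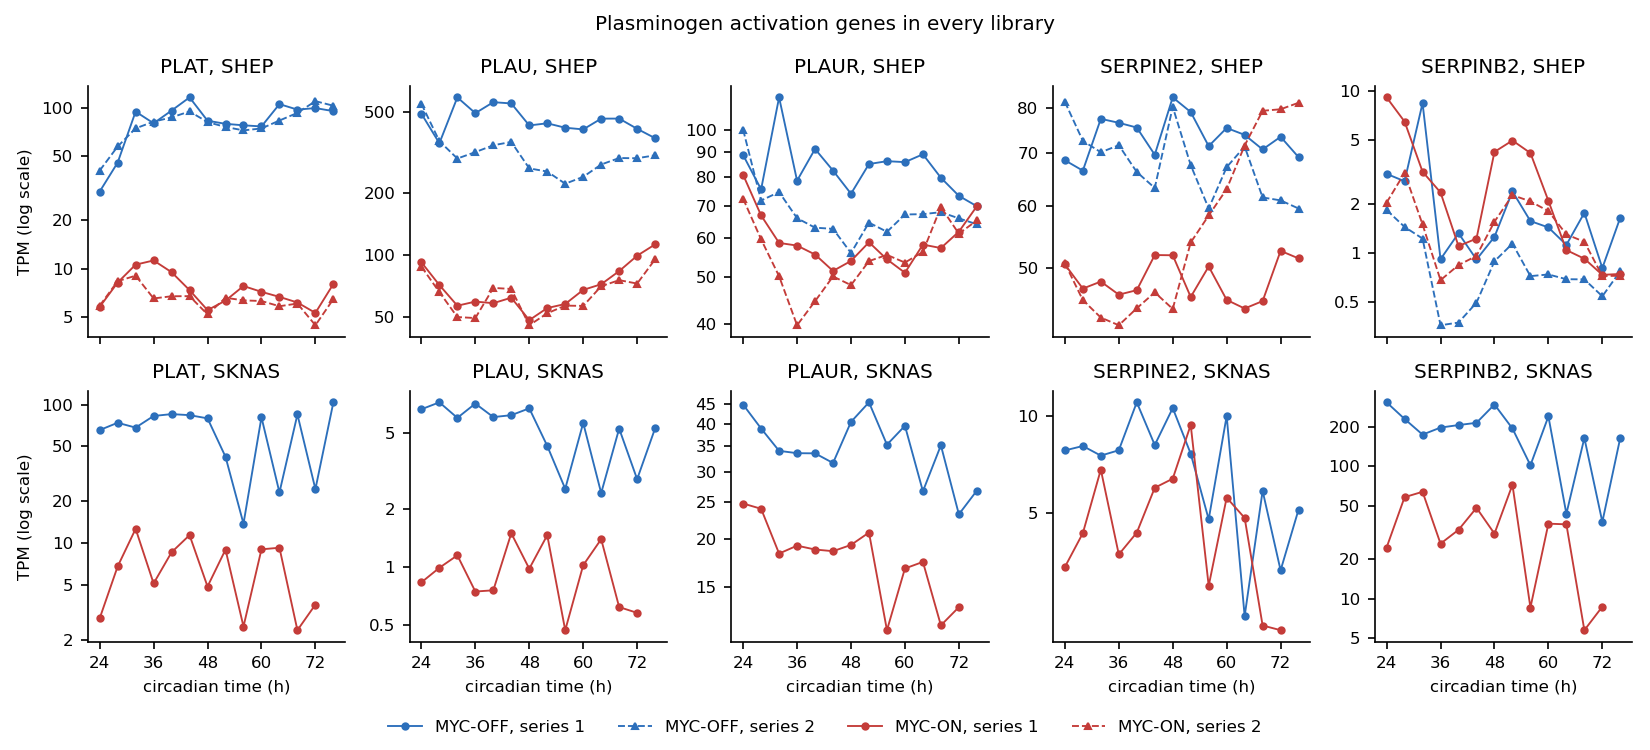
TPM (log axis, own range per panel) of the 5 members against circadian time in hours, with SHEP above and SKNAS below; each point is 1 library, blue is MYC-OFF, red is MYC-ON, and circles and triangles are series 1 and 2. PLAT and PLAU show no overlap between blue and red in either line, SERPINE2 in SHEP MYC-ON rises in series 2 but not in series 1, and the low SKNAS points at CT56 and after recur across panels.

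PLAU, the urokinase-type activator, was the activator with the higher level in SHEP and was much lower in MYC-ON in both lines. In SHEP it ran from 222.6 to 587.0 TPM in MYC-OFF (median 365.2) and from 45.4 to 112.7 TPM in MYC-ON (median 66.7). In SKNAS it was low, from 2.42 to 7.19 TPM in MYC-OFF (median 5.79) and from 0.468 to 1.49 TPM in MYC-ON (median 0.978). Neither line had overlapping groups, and PLAU was lower in MYC-ON in 28 of 28 and 13 of 13 pairs. A gene counted as changed if limma, with CT as a factor, gave an adjusted p up to 0.05 over all genes tested and the log2 difference reached 0.15. PLAU fell by 2.47 ± 0.089 on the log2(TPM + 1) scale in SHEP (SE, limma adjusted p = 1.47e-28) and by 1.64 ± 0.15 in SKNAS. In SKNAS it passed the filter of a mean of 1 TPM only through MYC-OFF (0.959 TPM in MYC-ON), so its fall there is a description. Only 11 of the 14362 genes tested in SHEP had a lower value, and 2.35% of the 13886 tested in SKNAS did. The time points of a series come from 1 experiment, so the p-values of these fits measure the spread between libraries. With the mean of each SHEP series as 1 replicate, 2 against 2, the change of PLAU remained called (adjusted p = 3.17e-04).

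All 4 members other than PLAT were called in SHEP, 3 lower and 1 higher, where 71.9% of all tested genes were called either way (38.9% lower and 33% higher). In SKNAS PLAUR, SERPINE2 and SERPINB2 were called lower, where 34.2% of tested genes were called lower and 48.1% either way. The fall of PLAU there is a description. A call alone therefore sets these genes little apart from the rest of the table, and the size of the change carries the description. In SKNAS the median change over all genes was −0.29 on the log2 scale with the TPM as deposited and 0.03 after median-of-ratios rescaling of the libraries. The split of calls moved with it, from 1925 higher and 4751 lower to 3829 higher and 3319 lower. After that rescaling PLAT was at −2.67, PLAU at −1.40 and SERPINB2 at −2.12 in SKNAS, each still far from the median of all genes.

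PLAUR, the receptor that holds urokinase on the cell surface, changed less than either activator. In SHEP it ran from 55.9 to 116.7 TPM in MYC-OFF (median 73.6) and from 39.8 to 80.9 TPM in MYC-ON (median 56.8). In SKNAS it ran from 23.2 to 45.5 TPM in MYC-OFF (median 34.6) and from 11.6 to 24.8 TPM in MYC-ON (median 18.6). The groups overlapped in both lines, though MYC-ON was lower in 26 of 28 SHEP pairs and in all 13 SKNAS pairs. It fell by 0.39 ± 0.054 in SHEP (SE, log2 scale, limma adjusted p = 1.47e-08) and by 0.95 ± 0.11 in SKNAS (adjusted p = 3.54e-06). In the SKNAS libraries with a library median of at least 3.8 the PLAUR value was −0.80 and was not called (adjusted p = 0.13), in a fit where only the pairs at CT32 and CT44 had both conditions and carried weight.

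SERPINE2, or protease nexin-1, is a secreted inhibitor of thrombin, urokinase and PLAT. In SHEP its level ran from 59.6 to 82.4 TPM under MYC-OFF (median 71.1) and from 42.3 to 81.1 TPM under MYC-ON (median 49.2). In SKNAS it ran from 2.41 to 11.01 TPM in MYC-OFF (median 7.73) and from 2.18 to 9.38 TPM in MYC-ON (median 4.36). The groups overlapped in both lines: in SHEP 23 of 28 MYC-ON libraries lay below every MYC-OFF library, and in SKNAS 2 of 13 did. SERPINE2 fell by 0.43 ± 0.060 in SHEP (SE, log2 scale, limma adjusted p = 1.00e-08). The SKNAS change was −0.52 ± 0.16 (adjusted p = 0.0173), and it lost its call after median-of-ratios rescaling (−0.21, adjusted p = 0.0568) and with the library median as a covariate (−0.19, adjusted p = 0.0859).

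SERPINB2, or PAI-2, an inhibitor of urokinase found largely inside cells, was the member whose direction differed between the lines. In SHEP it was barely transcribed, from 0.359 to 8.40 TPM in MYC-OFF (median 1.13) and from 0.681 to 9.11 TPM in MYC-ON (median 1.53). In SKNAS it ran from 38.0 to 305.7 TPM in MYC-OFF (median 195.3) and from 5.76 to 72.7 TPM in MYC-ON (median 33.1). The SHEP groups overlapped throughout, with MYC-ON higher in 21 of 28 pairs, while in SKNAS 9 of 13 MYC-ON libraries lay below every MYC-OFF library and all 13 pairs were lower. It fell by 2.47 ± 0.28 in SKNAS (SE, log2 scale, limma adjusted p = 4.36e-06), where 0.18% of the 13886 tested genes had a lower value. In SHEP it rose by 0.35 ± 0.13 (adjusted p = 0.015), and the call was lost with series means as replicates (adjusted p = 0.29) and without series 2 (0.29, adjusted p = 0.16).

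The difference of the MYC-ON change between the lines, SKNAS minus SHEP, was tested as an interaction in limma over all 83 libraries, where 51.6% of 15942 genes were called. Of the 4 members other than PLAT, 3 were called. SERPINB2 differed by −2.82 ± 0.27 (SE, log2 scale, adjusted p = 2.43e-13) and PLAUR by −0.56 ± 0.10 (adjusted p = 5.04e-06). After rescaling, the PLAUR difference was −0.30 and no longer called (adjusted p = 0.0513). PLAU differed by 0.83 ± 0.16 (adjusted p = 2.06e-05), but its SKNAS level is so low that this value depended on the pseudocount: with 0.1 in place of 1 it was 0.16 (adjusted p = 0.47). In plain TPM the PLAU means fell by similar factors, 5.66-fold in SHEP (386 ± 104 to 68.2 ± 16.9 TPM, SD, n = 28 each) and 5.50-fold in SKNAS (5.28 ± 1.64 to 0.959 ± 0.339 TPM, SD, n = 14 and 13). For SERPINE2 the difference was −0.09 ± 0.13 (adjusted p = 0.60), and for PLAT it was 0.36 ± 0.20, given without a test.

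**Figure D2:**
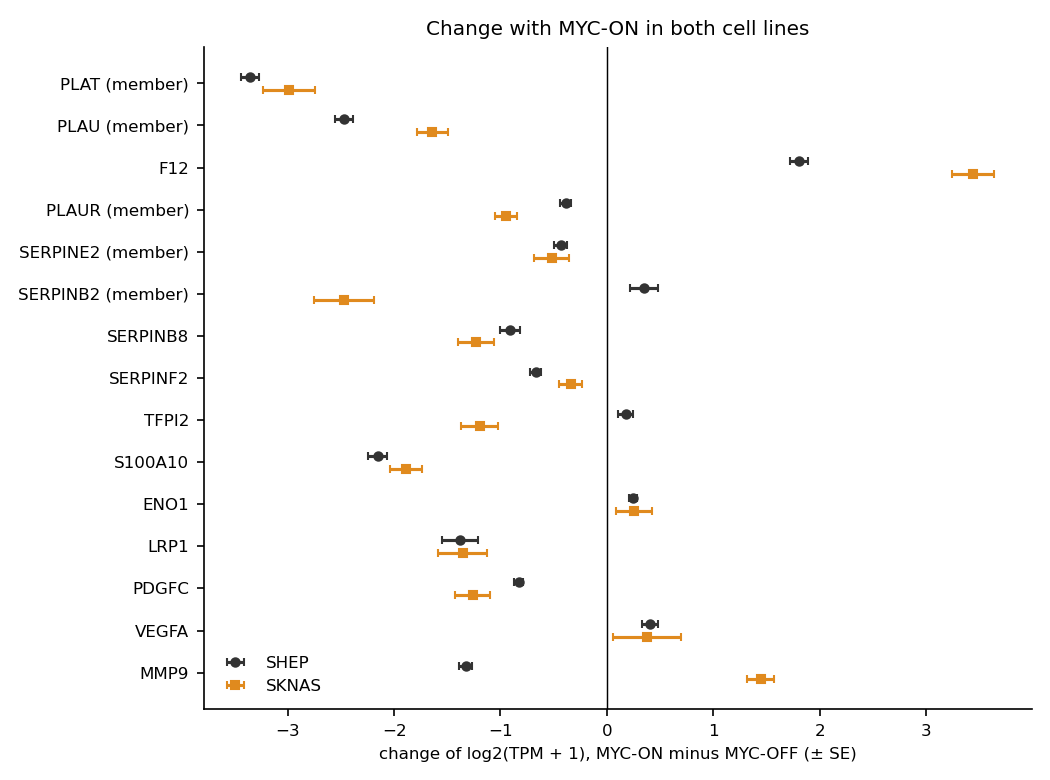
Change of log2(TPM + 1), MYC-ON minus MYC-OFF, for the 5 members and other genes of the system in SHEP (circles) and SKNAS (squares), with bars of 1 SE. PLAT, PLAU and S100A10 lie far to the left in both lines, F12 lies to the right in both, and SERPINB2, TFPI2 and MMP9 lie on opposite sides of 0 in the lines.

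The lines held these genes at very different levels. In MYC-OFF, PLAU was lower in SKNAS than in SHEP by −5.95 ± 0.13 (SE, log2 scale, limma adjusted p = 2.20e-28), SERPINE2 by −3.21 ± 0.096 (adjusted p = 3.30e-24) and PLAUR by −1.11 ± 0.080 (adjusted p = 5.10e-14). SERPINB2 was higher in SKNAS by 6.16 ± 0.20 (adjusted p = 1.49e-23). All 5 members were called between the lines in MYC-OFF, where 78.6% of 14926 genes were, so that here too the sizes say more than the calls. In MYC-ON SERPINE2 (−3.25), PLAUR (−1.62) and SERPINB2 (3.28) were called in the same directions, among 84.4% of 14620 genes. PLAU was at −5.07 there, a description because it passed the filter only through SHEP. PLAT, the member closest in level between the lines, was at −0.47 ± 0.18 in MYC-OFF (adjusted p = 0.0178). That small difference turned to 0.069 (adjusted p = 0.44) in the SKNAS libraries with a library median of at least 3.8. In MYC-ON it was −0.17 ± 0.12 (adjusted p = 0.22) as deposited and 0.25 after rescaling (adjusted p = 0.0048), so no direction can be given for PLAT between the lines.

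In order of mean TPM, the members ran PLAU, PLAT, PLAUR, SERPINE2, SERPINB2 in SHEP MYC-OFF, where PLAT (82.4 ± 20.1) and PLAUR (76.1 ± 13.5), and PLAUR and SERPINE2 (70.8 ± 6.40), differed by less than 1 SD of either (n = 28). In SHEP MYC-ON PLAU (68.2 ± 16.9), PLAUR (57.7 ± 8.76) and SERPINE2 (53.0 ± 11.4) led, PLAUR and SERPINE2 less than 1 SD apart, and PLAT (7.004 ± 1.60) and SERPINB2 (2.25 ± 1.97) were far lower. In SKNAS the order was SERPINB2, PLAT, PLAUR, SERPINE2, PLAU in MYC-OFF (183 ± 79.5, 65.2 ± 27.9, 34.9 ± 6.60, 7.15 ± 2.57 and 5.28 ± 1.64 TPM, n = 14), where SERPINE2 and PLAU differed by less than the SD of SERPINE2. In SKNAS MYC-ON it was SERPINB2, PLAUR, PLAT, SERPINE2, PLAU (34.997 ± 21.4, 18.1 ± 4.05, 6.76 ± 3.48, 4.79 ± 2.04 and 0.959 ± 0.339 TPM, n = 13), with PLAT below PLAUR and less than 1 SD from SERPINE2.

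Ratios between genes of the same library are less open to a scaling shared by all its genes. Of PLAT plus PLAU transcripts, PLAT in SHEP made up 18.3 ± 5.27% under MYC-OFF and 9.75 ± 3.02% under MYC-ON (SD, n = 28 each). In SKNAS it made up 91.7 ± 2.61% (SD, n = 14) and 86.1 ± 4.31% (SD, n = 13), so the activator transcripts were mostly urokinase in SHEP and mostly tissue-type in SKNAS in either condition. These shares contain PLAT and are a description. Among the 4 other members, 6 ratios of TPM + 1, in which such a scaling does not fully cancel for genes at low TPM, in 2 lines gave 12 two-sided permutation tests of the mean log2 ratio, with p adjusted over the 12. The resamples shuffled libraries without regard to CT or series, so these p-values too measure the spread between libraries. In SHEP the log2 ratio of PLAU to its receptor PLAUR went from 2.30 ± 0.23 to 0.21 ± 0.24 (SD, n = 28 each, permutation test adjusted p = 4e-05, from the smallest p the resamples can give, 2e-05). In SKNAS it went from −2.55 ± 0.39 (n = 14) to −3.27 ± 0.28 (n = 13, permutation adjusted p = 6.86e-05), a change of −0.72 that was −1.38 with a pseudocount of 0.1. PLAUR to SERPINE2 stayed at 0.09 ± 0.20 and 0.13 ± 0.27 in SHEP (permutation adjusted p = 0.49), the only one of the 12 not called. The ratio of SERPINE2 to SERPINB2 moved in opposite directions, by −0.78 in SHEP (permutation adjusted p = 1.20e-04) and by 1.98 in SKNAS (adjusted p = 4e-05).

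**Figure D3:**
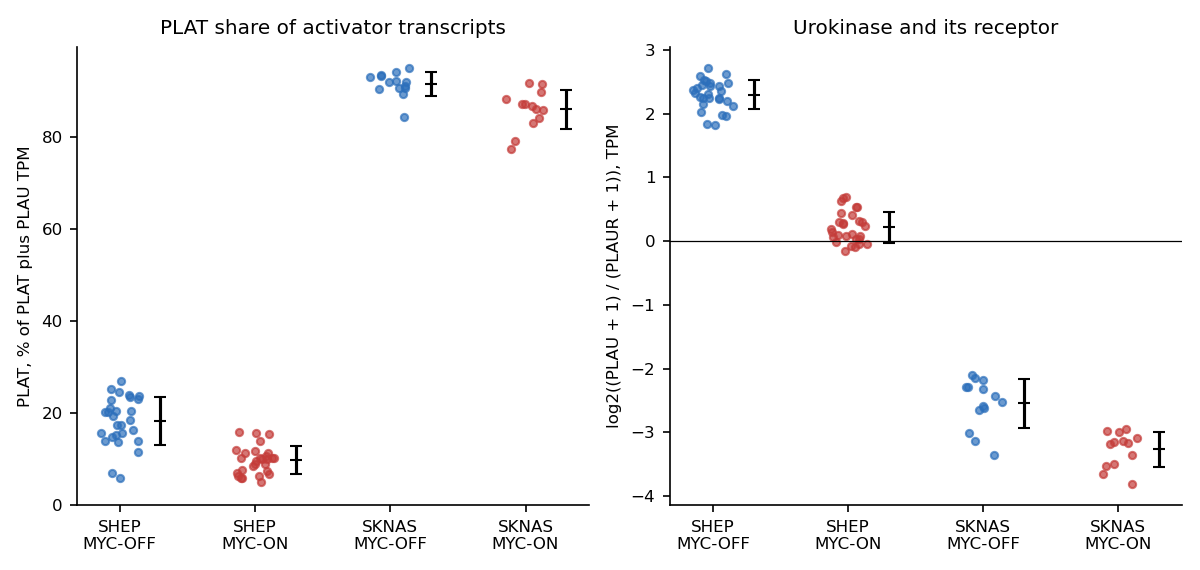
Left, PLAT as a percentage of PLAT plus PLAU TPM; right, the log2 ratio of PLAU + 1 to PLAUR + 1 in TPM; each point is 1 library in the 4 groups, and the black marks are the mean and SD. PLAT is under 30% in every SHEP library and over 70% in every SKNAS library, and the mean ratio on the right is lower in MYC-ON in both lines (0.21 against 2.30 in SHEP and −3.27 against −2.55 in SKNAS).

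Over time in culture, PLAT and PLAU moved in different ways in SHEP. A slope per 24 h was fitted in limma with a mean for each series, and 11.8% of genes had a called slope in MYC-OFF, 60.3% in MYC-ON and 43.4% a called difference between them. In MYC-OFF PLAT was at 30.1 and 40.7 TPM at CT24 in series 1 and 2 and at 94.7 and 74.5 TPM at CT32. Its slope was 0.40 ± 0.080 per 24 h (SE, log2 scale, adjusted p = 2.59e-04), but without CT24 and CT28, an alternative chosen after the values were seen, it was 0.11 (adjusted p = 0.48). The rise of PLAT in MYC-OFF from CT24 to CT32 was present in both series. Later values fell and rose again, and the highest was at CT44 in series 1 (116.1 TPM) and at CT72 in series 2 (110.0 TPM). In MYC-ON PLAT was at 5.78 and 5.88 TPM at CT24, highest at CT36 (11.2 TPM) in series 1 and at CT32 (9.04 TPM) in series 2, and lowest at CT72 in both. Its slope there was −0.17 ± 0.080 (adjusted p = 0.0607), and the difference from MYC-OFF was −0.57 ± 0.11 (adjusted p = 4.00e-05).

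PLAU ended high in MYC-ON. It was lowest at CT48 in both MYC-ON series (48.1 and 45.4 TPM) and highest at CT76 in both (112.7 and 95.3 TPM). In MYC-OFF the series differed in level, with means of 459 ± 69.6 TPM in series 1 and 313 ± 78.8 TPM in series 2 (SD, n = 14 each). The slope was −0.19 ± 0.076 in MYC-OFF (adjusted p = 0.0892) and 0.18 ± 0.076 in MYC-ON (adjusted p = 0.0433), a difference of 0.37 ± 0.11 (adjusted p = 0.00431). The MYC-ON slope was 0.13 without series 1 (adjusted p = 0.33) and 0.22 without series 2 (adjusted p = 0.0706), so neither series alone was called, and it was 0.43 without CT24 and CT28 (adjusted p = 9.69e-07). With either series alone the difference between conditions was 0.35 to 0.39 and the call was lost (adjusted p = 0.0681 without series 2 and 0.051 without series 1), and without CT24 and CT28 it was 0.61 (adjusted p = 2.40e-06).

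SERPINE2 in SHEP MYC-ON went different ways in the series. In series 1 it stayed between 44.5 and 52.6 TPM, and in series 2 it went from a low of 42.3 TPM at CT36 to 81.1 TPM at CT76, within the range of MYC-OFF. The pooled slope was 0.23 ± 0.045 per 24 h (SE, log2 scale, limma adjusted p = 2.27e-05), but without series 2 it was 0.01 (adjusted p = 0.92). The difference between the series' slopes, tested after the values were seen, was 0.44 ± 0.075 (adjusted p = 5.43e-04), where 12.7% of genes had a called difference in MYC-ON and 0.146% in MYC-OFF. SERPINE2 thus rose late in 1 of 2 experiments.

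SERPINB2 in SHEP MYC-ON had a shape in time that was shared by both series, and MYC-OFF showed part of it. In MYC-ON it began at 9.11 TPM at CT24 in series 1 and reached 3.12 TPM at CT28 in series 2, fell to 1.10 TPM at CT40 and 0.681 TPM at CT36, came back to 4.94 and 2.28 TPM at CT52 and ended at 0.744 and 0.725 TPM at CT76. In MYC-OFF the lowest values of series 2 were also at CT36 (0.359 TPM), while series 1 had its highest value at CT32 (8.40 TPM). Series 1 was then at 0.917 TPM at CT36, and both MYC-OFF series were higher again at CT52 (2.40 and 1.14 TPM). The slope in MYC-ON was −0.54 ± 0.14 per 24 h (adjusted p = 5.66e-04), and it was −0.23 without series 1 (adjusted p = 0.14) and −0.30 without CT24 and CT28 (adjusted p = 0.12). Its difference from the MYC-OFF slope was not called (−0.23 ± 0.19, limma adjusted p = 0.35). With CT as a factor, which asks for any change over time, SERPINB2 was called in MYC-ON (adjusted p = 0.00678), as were PLAU (adjusted p = 5.76e-05), PLAT (adjusted p = 0.0125) and PLAUR (adjusted p = 0.0219), where 26.3% of genes were. In MYC-OFF only PLAT was (adjusted p = 1.19e-04), where 6.84% of genes were.

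No member had a called 24 h rhythm in limma's cosine fit in any of the 4 groups, where SHEP had 14 called genes with MYC-OFF (0.0975%) and 2 with MYC-ON (0.0139%) and SKNAS had 0 with either. At an unadjusted p under 0.05 SHEP had 2 members with MYC-OFF (PLAU and SERPINB2), 3 with MYC-ON (PLAT, PLAUR and SERPINB2) and 0 in SKNAS, where 1527 of all 14362 genes in SHEP passed with MYC-OFF and 1561 with MYC-ON. The largest of these amplitudes was that of SERPINB2 in SHEP MYC-ON, 0.40 on the log2 scale (adjusted p = 0.34). In SKNAS no member had a called slope in either condition, where 0.194% of genes had one in MYC-OFF and 0.18% in MYC-ON. At an unadjusted p under 0.05, 4 members had a negative slope in SKNAS MYC-OFF (all but PLAT) and 2 in SKNAS MYC-ON (PLAUR and SERPINB2), where 4962 and 1032 of all 13886 genes had a slope of either sign past it.

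The SKNAS libraries with a low library median also had low values of these genes. In the 3 MYC-OFF libraries with a median under 3.3, PLAT was at 13.8 to 24.5 TPM and SERPINB2 at 38.0 to 102.1 TPM, against 65.5 to 104.0 and 164.3 to 305.7 TPM in the 10 with a median of at least 3.8. In MYC-ON PLAT was at 2.34 to 3.59 TPM in the 4 lowest libraries and at 8.96 to 12.7 TPM in the 3 highest. PLAU showed the same order, at 2.42 to 2.86 against 5.24 to 7.19 TPM in MYC-OFF and 0.468 to 0.830 against 1.15 to 1.49 TPM in MYC-ON. PLAUR did so less, at 23.2 to 35.3 against 26.8 to 44.9 TPM in MYC-OFF, and its highest MYC-ON value (24.8 TPM) was in a library with a median under 3.3. At medians of at least 3.8 the SERPINE2 means were close, 8.20 TPM in MYC-OFF and 7.40 TPM in MYC-ON. Among libraries of at least 3.8, 10 with MYC-OFF and 3 with MYC-ON, PLAT, PLAU, PLAUR and SERPINB2 did not overlap between the conditions. In MYC-ON SERPINB2 was at 48.6 to 72.7 TPM there and PLAUR at 18.3 to 20.8 TPM. The changes in that band, which rest on the 2 pairs at CT32 and CT44, were −2.56 for PLAT, −1.61 for PLAU and −1.77 for SERPINB2 (limma adjusted p = 0.0136). That of PLAUR was not called.

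**Figure D4:**
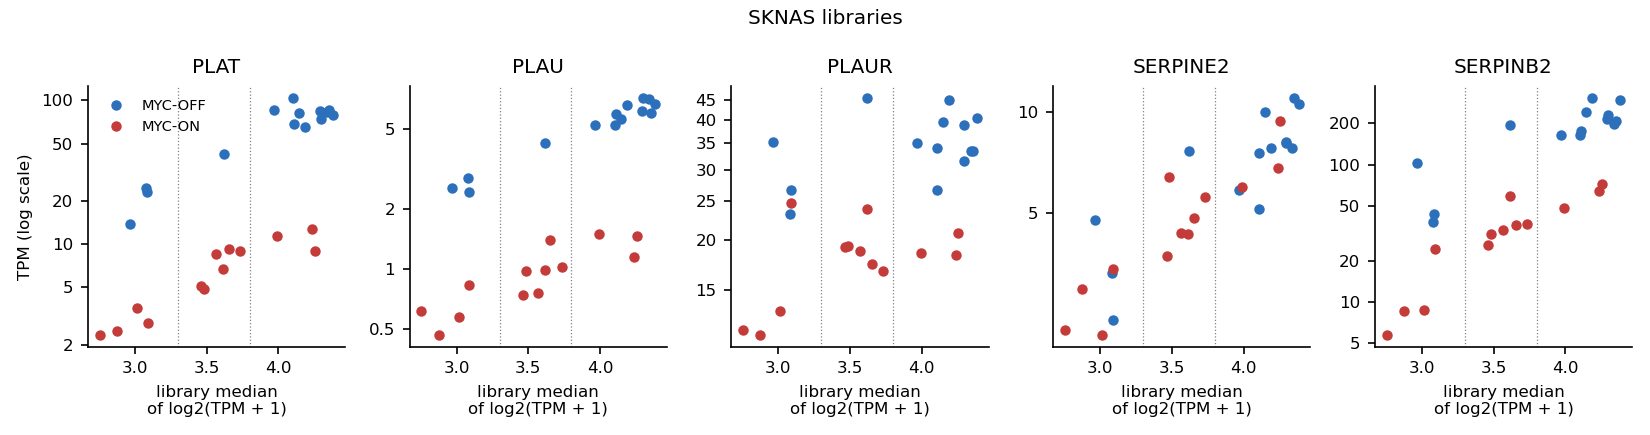
TPM (log axis) of each member against the library median of log2(TPM + 1) in the SKNAS libraries; blue is MYC-OFF, red is MYC-ON, each point is 1 library and dotted lines mark medians of 3.3 and 3.8. Low medians go with low TPM of PLAT, PLAU, SERPINE2 and SERPINB2 in both conditions, less so of PLAUR. At medians of at least 3.8 PLAT is at 65.5 to 104.0 TPM in MYC-OFF and 8.96 to 12.7 TPM in MYC-ON.

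Of 43 other genes of the system, grouped by role, 33 were tested in SHEP and 33 in SKNAS. In SHEP 23 were called lower and 4 higher, with a median change of −0.67 on the log2 scale against −0.04 over all genes, of which 38.9% were called lower and 33% higher. In SKNAS 23 were called lower and 2 higher, with a median of −1.19 against −0.29 over all genes, of which 34.2% were called lower and 13.9% higher. The counts for single roles are to be read beside these shares. After rescaling the SKNAS calls were 21 lower and 6 higher. These lists were written with earlier results of these data known, so their counts describe the genes listed and no more. The counts include genes that passed the filter only through the condition where they were higher, such as SERPINF2 in both lines and MMP9 in SKNAS.

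Among other routes to plasmin, plasminogen itself (PLG) was at 0 in every SKNAS library and at most 0.204 TPM in SHEP. F12, coagulation factor XII, a contact-phase protease that can also cut plasminogen, was the 1 gene of its list of 3 tested, and it rose. In SHEP it went from 3.50 ± 1.13 to 14.7 ± 3.73 TPM (SD, n = 28 each) and in SKNAS from 7.46 ± 2.58 (n = 14) to 89.9 ± 28.1 TPM (n = 13). Its groups did not overlap in either line, and the changes were 1.81 ± 0.087 (SE, limma adjusted p = 1.12e-23) and 3.44 ± 0.20 (adjusted p = 6.68e-09), with a difference of 1.64 ± 0.18 between lines (adjusted p = 3.00e-11).

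Of 6 serpins listed as inhibitors of the activators, 5 were tested, of which 3 fell and 1 rose in SHEP and 4 fell in SKNAS, members included. SERPINB8, an intracellular serpin, had the largest fall of the list in SHEP, at −0.91 ± 0.092 (limma adjusted p = 2.38e-12), and was at −1.23 ± 0.17 in SKNAS (adjusted p = 2.79e-05). Whether it acts on PLAT or urokinase was not tested. Of 5 plasmin inhibitors 2 were tested. SERPINF2, alpha-2-antiplasmin, was at 1.55 ± 0.352 TPM in MYC-OFF and 0.596 ± 0.191 TPM in MYC-ON in SHEP (SD, n = 28 each). In SKNAS it was at 1.57 ± 0.528 (n = 14) and 0.933 ± 0.178 TPM (n = 13). It passed the 1 TPM filter in each line only through MYC-OFF, so its changes are descriptions. They were −0.67 ± 0.051 (SE) in SHEP and −0.34 ± 0.11 in SKNAS, and the SKNAS value was −0.12 after rescaling. TFPI2, an inhibitor of plasmin and other matrix proteases, rose by 0.18 ± 0.068 in SHEP (adjusted p = 0.0176) and fell by 1.19 ± 0.17 in SKNAS (adjusted p = 4.96e-05), with a difference between lines of −1.37 ± 0.15 (adjusted p = 1.13e-11).

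Of 4 genes for plasminogen binding at the surface, 2 fell in each line and 1 rose in SHEP. S100A10, the annexin A2 partner that binds plasminogen and PLAT, fell in SHEP from 738 ± 111 to 174 ± 66.5 TPM, and SKNAS had 1023 ± 197 TPM before and 288 ± 90.4 TPM with MYC-ON, with no overlap in either line. It fell by 2.15 ± 0.093 in SHEP (limma adjusted p = 1.94e-25) and by 1.89 ± 0.15 in SKNAS (adjusted p = 1.26e-07). ENO1, a glycolytic enzyme that also binds plasminogen at the surface, rose by 0.25 ± 0.036 in SHEP (adjusted p = 3.38e-08).

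Of 7 genes for uptake of activator complexes, 6 of 7 tested fell in SHEP and 5 of 6 in SKNAS, and none rose. LRP1, the endocytic receptor for PLAT and for urokinase-inhibitor complexes, fell by 1.38 ± 0.17 in SHEP (limma adjusted p = 6.03e-10) and was at −1.36 ± 0.23 in SKNAS (adjusted p = 1.93e-04). Of 8 surface partners of the urokinase receptor, 6 of 7 tested fell in SHEP and 7 of 7 in SKNAS. ITGB3, the beta chain of the vitronectin receptor, fell by 2.65 ± 0.086 in SHEP (adjusted p = 3.45e-30), from 26.1 ± 5.14 to 3.35 ± 1.10 TPM (SD, n = 28 each), and was below the filter in SKNAS.

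Of 7 growth factors that activators or plasmin can release, 3 of 6 tested fell and 1 rose in SHEP, and 3 of 6 fell in SKNAS. PDGFC, a latent growth factor that PLAT can cleave to its active form, fell by 0.83 ± 0.042 in SHEP (limma adjusted p = 1.19e-22) and by 1.26 ± 0.17 in SKNAS (adjusted p = 1.84e-05). VEGFA rose by 0.41 ± 0.077 in SHEP (adjusted p = 6.56e-06). Of 5 metalloproteases that plasmin can activate, 3 of 3 tested fell in SHEP, while in SKNAS 2 of 4 fell and 1 rose. MMP9, a gelatinase, moved in opposite directions at low levels, in SHEP from 4.80 ± 0.823 to 1.33 ± 0.426 TPM, and in SKNAS from 0.184 ± 0.145 to 2.28 ± 0.731 TPM. The changes were −1.33 ± 0.060 in SHEP (limma adjusted p = 8.84e-25) and 1.45 ± 0.13 in SKNAS. In SKNAS MMP9 passed the 1 TPM filter only through MYC-ON, so its rise there is a description.

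Genes whose levels followed each member most closely were sought over the 56 SHEP libraries after the mean of each condition and series was removed, so the MYC-ON change played no part. PLAT was nearest to FN1, which encodes fibronectin (Pearson r = 0.81, Spearman rho = 0.60), to TGM2, a transglutaminase (r = 0.80), and to STRA6, the receptor for retinol-binding protein (r = 0.75). The value for FN1 was 0.93 within MYC-OFF and 0.40 within MYC-ON, and 0.65 without the 2 libraries farthest from the median. PLAU was nearest to WNT7A (r = 0.73), SEMA7A (r = 0.72) and LIF (r = 0.72). PLAUR was nearest to SEMA7A too (r = 0.78), then to TMEM200A (r = 0.77) and AMIGO2 (r = 0.74). SERPINE2 was nearest to FBXL13 (r = 0.82), RPF2 (r = 0.80) and SARS1 (r = 0.80), and for RPF2 the value was 0.92 within MYC-ON and 0.08 within MYC-OFF. SERPINB2 was nearest to GREM1 (r = 0.79), ELOA (r = 0.75) and GLIPR1 (r = 0.75). These are the highest of all tested genes, the libraries share their series and CT, and the values are descriptions.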

How the data were processed

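The deposited values are TPM, 1 value per gene and library. The authors made them from poly-A paired-end reads with Salmon 1.3.0 against Gencode transcripts of GRCh38 and summed transcripts to genes with Tximport. TPM add up to a fixed total per library and keep no read depth, so no counting error can be given, and a fall of abundant genes is balanced by rises elsewhere. As TPM suit no count model, the test of the study's methods, log2(TPM + 1) was analysed with limma 3.58.1 (R 4.3.3) and Benjamini-Hochberg adjustment over all genes with a mean of at least 1 TPM. Time points served as replicates, with CT as a factor. In SKNAS, the MYC-OFF library at CT76 has no MYC-ON partner and carries no weight in that fit. Fold changes on this scale understate changes of genes at low TPM. Slopes and rhythms were called at an adjusted p of at most 0.05. Ratios were tested with 100000 resamples in SciPy 1.17.1. Where a symbol repeats, the most abundant entry stands for it.

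The members and lists were chosen with earlier results of these data known. The genes named are the members, PLG (chosen after its values were seen), the largest called rise and fall in SHEP of each role list, and the 3 genes closest to each member. Replicate numbers in SHEP mark repeat experiments per the labels. Samples of the same number deviated together (correlation of 0.49 across 14362 genes). Some listed genes are not reported here and are not in the lists' counts. A further SKNAS series and another cell line were not analysed here. The limma fits were run on simulated data with known changes and noise drawn independently for each library. Such data cannot show how time points of a shared series affect the p-values.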

Additional observations from a re-analysis of the deposited data

Results flagged for a closer look

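The change with MYC-ON differed between the lines, by a test of the difference itself, for 3 members. SKNAS minus SHEP was −2.82 on the log2 scale for SERPINB2 (limma adjusted p = 2.43e-13), −0.56 for PLAUR (adjusted p = 5.04e-06) and 0.83 for PLAU (adjusted p = 2.06e-05), where 51.6% of genes were called. The PLAU difference was 0.16 with a pseudocount of 0.1 (adjusted p = 0.47) and that of PLAUR was −0.30 after rescaling (adjusted p = 0.0513), neither of them called, while SERPINB2 was called under every alternative run, at −3.07 to −2.34. SERPINB2 was lower in MYC-ON in 13 of 13 SKNAS pairs and higher in 21 of 28 SHEP pairs.

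The slope over culture time differed between MYC-ON and MYC-OFF in SHEP for 3 members, where 43.4% of genes were called. MYC-ON minus MYC-OFF was −0.57 per 24 h for PLAT (limma adjusted p = 4.00e-05), 0.37 for PLAU (adjusted p = 0.00431) and 0.30 for SERPINE2 (adjusted p = 1.60e-04), the last of which was 0.0019 without series 2. Every group had more than 10 libraries, so no single library was tested as an outlier.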

How the results depend on the processing

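The falls of PLAT and PLAU kept their direction in both lines, and that of PLAU in SHEP its call, under every alternative run. With the replicate block in SHEP, PLAU was at −2.47 (limma adjusted p = 1.89e-31) and SERPINB2 at 0.35 (adjusted p = 0.00201), 10378 genes were called against 10320, and no call of a member changed. With series means the SERPINB2 change in SHEP stayed 0.35 and was not called (adjusted p = 0.29); leaving out a series gave 0.29 to 0.40. In SKNAS, libraries of at least 3.8 left 712 called genes against 6676, with 2 pairs carrying weight, and PLAUR (−0.80) and SERPINE2 (−0.25) were not called; SERPINE2 was at −0.21 after rescaling and −0.19 with the covariate. Between the lines' changes, PLAT moved from 0.36 to 0.85 with the covariate, PLAU to 0.16 with the smaller pseudocount and PLAUR to −0.30 after rescaling; 5050 to 5221 genes were called with a single SHEP series against 8222. PLAT between lines was at 0.069 in MYC-OFF (at least 3.8), −0.48 to −0.46 without a series, and 0.25 in MYC-ON after rescaling. The log2 ratios PLAU/SERPINB2 (0.20) and PLAUR/SERPINE2 (−0.38) in SKNAS lost their calls with the smaller pseudocount, and PLAU/SERPINE2 moved from −1.15 to −1.76.

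Over time in SHEP MYC-OFF, without CT24 and CT28 PLAT was at 0.11 and 710 genes were called against 1700; 144 to 2052 were called without a series. In MYC-ON, PLAT was called with the smaller pseudocount (−0.19), without CT24 and CT28 (−0.27) and with CT as a factor (range 0.88), PLAUR without CT24 and CT28 (0.21) and with CT as a factor (0.66), SERPINE2 lost its call with CT as a factor (0.54), and SERPINB2 without CT24 and CT28 (−0.30). Slopes without a series were 0.13 to 0.22 for PLAU, 0.0053 to 0.45 for SERPINE2 and −0.85 to −0.23 for SERPINB2. For MYC-ON minus MYC-OFF they were 0.35 to 0.39 for PLAU and 0.0019 to 0.59 for SERPINE2, and PLAUR was called after rescaling (0.18) and without CT24 and CT28 (0.31). In SKNAS MYC-OFF 77 slopes were called after rescaling and 4 with the smaller pseudocount, against 27; in MYC-ON 62 against 25. No gene had a called rhythm with 1 SHEP series (0 against 14 and 2). The causes of these shifts were not tested. The depth of each single library is unknown, which limits the low genes most: PLAU in SKNAS and SERPINB2 in SHEP. A repeat of the SKNAS series was not analysed here.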
